A study of Mus musculus with 2 samples.

Results

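Fatty acid uptake and esterification in the liver were followed through 10 genes (Cd36, Fabp1, Fabp2, Fabp4, Lpl, Pparg, Mogat1, Vldlr, Slc27a2 and Dgat2), taken by symbol from the 32285 gene rows of 2 spatial transcriptomics tables. Each table held the counts of unique molecular identifiers (UMIs, 1 for each captured RNA molecule) per spot of 1 frozen liver section 10 µm thick from a male C57BL/6J mouse, 1 fed a normal chow diet (NCD) and 1 fed a high-fat diet (HFD) with 60% fat. The mice were bought at 5 weeks of age, acclimated for 1 week, kept for 14 weeks on their diet and then given distilled water by mouth for 8 weeks. No allele or transgene is given for either animal. The labels also name both samples as hematopoietic stem cells and immune cells. The counts went against that: the 4 stem cell markers together stood at 4.13 UMIs per 1000000 UMIs (CPM) in NCD and 4.30 CPM in HFD, and the 6 hepatocyte markers at 111838 and 129969 CPM. With 1 section for each diet, the diet, the animal and the slide cannot be told apart, no p-value was computed between the sections, and every interval below is a 95% interval that covers counting error only. A spot covers several cells, so fewer cells of a type and less RNA per cell cannot be told apart.

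Hepatocytes take up circulating fatty acids with the help of CD36 and the transporter encoded by Slc27a2, and carry them in the cytosol on fatty acid binding proteins, of which Fabp1 encodes the liver form. Lipoprotein lipase (Lpl) releases fatty acids from circulating triglycerides, and the very low density lipoprotein receptor (Vldlr) takes up triglyceride-rich particles. Mogat1 and Dgat2 encode acyltransferases that build triglyceride, and Pparg encodes the nuclear receptor PPARγ, which drives lipid storage genes, Cd36 and Fabp4 among them. In the liver lobule, blood runs from the portal tract to the central vein, and many genes of hepatocytes are used unequally along that path. In build GRCm38 the uptake genes lie as Cd36 (ENSMUSG00000002944) at chr5:17781690-17888801, Slc27a2 (ENSMUSG00000027359) at chr2:126552407-126588243, Fabp1 (ENSMUSG00000054422) at chr6:71199827-71205023, Fabp2 (ENSMUSG00000023057) at chr3:122895072-122899506 and Fabp4 (ENSMUSG00000062515) at chr3:10204088-10208576. The lipoprotein genes are Lpl (ENSMUSG00000015568) at chr8:68880491-68907448 and Vldlr (ENSMUSG00000024924) at chr19:27216484-27254231. The acyltransferase genes are Mogat1 (ENSMUSG00000012187) at chr1:78510991-78538173 and Dgat2 (ENSMUSG00000030747) at chr7:99153658-99182719, and the receptor gene is Pparg (ENSMUSG00000000440) at chr6:115360951-115490399.

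The NCD section held 29037988 UMIs over 3692 spots (median 4188 per spot) and the HFD section 72118803 UMIs over 3594 spots (median 18549). In the NCD section 840 spots held under 1000 UMIs, and in the HFD section 4 did. RNA was also found beside the tissue: the median off-tissue spot held 3383 UMIs on the NCD slide and 1176 on the HFD slide. In the NCD section spots over tissue were thus little deeper than spots beside it. The 2 tables shared 3173 spot barcodes, which belong to the common layout of the slides. The 4 blood markers stood at 6676 CPM in NCD tissue and 1246 CPM in HFD tissue.

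Promoter sequences from RefSeq (build GRCm38.p6; 250 bases before to 50 bases after the start site) were listed for 7 of the 10 genes, and those of the genes with the largest ratio between the sections, Cd36 and Mogat1, are shown with that of Fabp1, which held a repeat of the kind that PPAR-RXR receptor pairs bind. The promoters lie at chr5:17835847-17836146 (Cd36, minus strand), chr1:78510810-78511109 (Mogat1, plus strand) and chr6:71199629-71199928 (Fabp1, plus strand). Capitals mark the match.
Cd36: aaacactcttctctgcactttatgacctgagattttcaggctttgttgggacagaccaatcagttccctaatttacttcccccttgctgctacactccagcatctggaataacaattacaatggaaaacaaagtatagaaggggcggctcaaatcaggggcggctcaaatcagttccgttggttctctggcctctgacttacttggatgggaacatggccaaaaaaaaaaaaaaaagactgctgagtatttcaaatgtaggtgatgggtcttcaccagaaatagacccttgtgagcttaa
Mogat1: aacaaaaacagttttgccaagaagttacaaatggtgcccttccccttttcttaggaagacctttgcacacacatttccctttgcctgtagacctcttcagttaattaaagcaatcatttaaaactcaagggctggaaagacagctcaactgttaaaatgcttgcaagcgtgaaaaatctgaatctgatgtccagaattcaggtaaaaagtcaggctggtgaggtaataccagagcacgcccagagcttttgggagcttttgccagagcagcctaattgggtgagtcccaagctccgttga
Fabp1: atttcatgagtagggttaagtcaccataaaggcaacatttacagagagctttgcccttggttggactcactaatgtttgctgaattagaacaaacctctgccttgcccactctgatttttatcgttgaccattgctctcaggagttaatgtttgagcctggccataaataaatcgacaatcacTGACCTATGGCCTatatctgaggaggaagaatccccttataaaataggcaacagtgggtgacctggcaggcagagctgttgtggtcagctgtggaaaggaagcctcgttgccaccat
The match reads TGACCTATGGCCT and starts 67 bases before the start site, on the strand opposite to the gene. It was found by the letters AGGNCANAGGNCA (N, any base) searched on both strands, a form that includes the stricter AGGTCANAGGTCA. Of all 32851 listed promoters 0.381% held the looser form and 0.0396% the stricter one. Of the 7 genes with a listed promoter, Fabp1 alone held the looser form and none the stricter. The letters TATAAA, present in 13.6% of all promoters, stood in the Fabp1 promoter 30 bases before the start site, on the strand of the gene, and on the opposite strand in 1 of the 3 Pparg promoters. A match of letters is a description of the sequence and not a bound site.

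Between whole sections, the uptake gene Cd36 and the acyltransferase gene Mogat1 had the largest ratios of the set. Cd36 stood at 63.6 CPM in the NCD section (1846 UMIs, 60.7 to 66.5) and at 222 CPM in the HFD section (16004 UMIs, 218 to 225). The HFD level was 3.49 times the NCD level (log2 ratio 1.80, 1.73 to 1.87). Mogat1, which makes diacylglycerol from monoacylglycerol, stood at 3.99 CPM in the NCD section from 116 UMIs and at 13.9 CPM in the HFD section from 1005 UMIs. Its log2 ratio was also 1.80, with a wider interval (1.52 to 2.09). Among all 11913 genes with 100 or more UMIs in the sum of the sections, 10.8% were at least 2-fold higher in HFD and 2.06% at least 2-fold lower. Of the 10 genes, 5 were at least 2-fold higher (Cd36, Fabp4, Lpl, Mogat1 and Vldlr) and 0 at least 2-fold lower. Their median log2 ratio was 0.98, beside 0.24 over all these genes, a shift that became 0.05 when the sections were scaled by the median of ratios; by that scaling 3 of the 10 were past 2-fold (Cd36, Mogat1 and Lpl). When the UMIs per spot beside the tissue were subtracted in each section, 3 were past 2-fold as well (Cd36, Lpl and Dgat2). The 10.8% and 2.06% of all genes were counted with scaling by total UMIs, so they are not a background for either of these counts.

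The fatty acid binding protein genes differed among themselves. Fabp4, known from adipocytes, macrophages and the endothelium of small vessels, was at 30.9 CPM in NCD tissue and 66.2 CPM in HFD tissue (log2 ratio 1.10, 1.00 to 1.20). That ratio moved with the processing: it was 0.07 after the off-tissue UMIs were subtracted and 0.57 when each spot was thinned to 300 UMIs. Fabp2, the intestinal form, was at 261 CPM in NCD tissue and 418 CPM in HFD tissue (log2 ratio 0.68, 0.64 to 0.72). Fabp1 was at 9740 CPM in NCD tissue and 11475 CPM in HFD tissue (log2 ratio 0.24, 0.23 to 0.24), which is that of the median gene. With the off-tissue UMIs subtracted the ratio of Fabp1 was -0.27. Slc27a2 was at 915 CPM in NCD tissue and 866 CPM in HFD tissue (log2 ratio -0.08, -0.10 to -0.06), and it was the only one of the 10 below 0.

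Lpl and Vldlr, which handle circulating lipoproteins, had few UMIs. Lpl was at 11.9 CPM in the NCD section from 346 UMIs and at 28.8 CPM in the HFD section from 2075 UMIs (log2 ratio 1.27, 1.11 to 1.44). Vldlr was at 2.10 CPM in the NCD section from 61 UMIs and at 4.69 CPM in the HFD section from 338 UMIs (log2 ratio 1.16, 0.76 to 1.58). The Vldlr ratio moved between 0.42, with the off-tissue UMIs subtracted, and 2.38, without the 1% of spots with the most UMIs of the gene, and that of Lpl between 0.66 and 1.64. Beside the tissue of the HFD slide Vldlr stood at 5.97 CPM from 13 UMIs, no lower than over the tissue within the counting error. Lpl beside the NCD tissue was at 12.2 CPM, as high as over it. Pparg was at 6.68 CPM in the NCD section from 194 UMIs and at 12.1 CPM in the HFD section from 870 UMIs (log2 ratio 0.85, 0.63 to 1.08). Dgat2, which adds the last acyl chain of triglyceride, was at 257 CPM in NCD tissue and 451 CPM in HFD tissue (log2 ratio 0.81, 0.78 to 0.85).

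**Figure D1:**
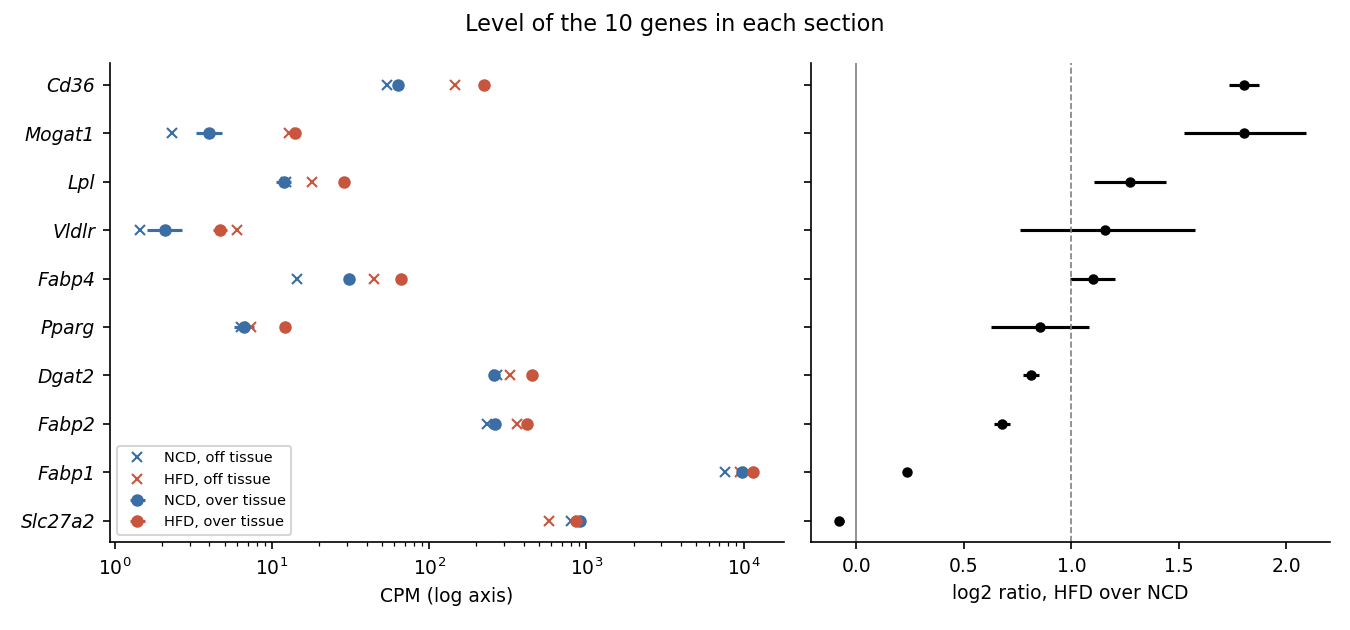
Left, CPM (log axis) of the 10 genes over tissue (points, with exact Poisson 95% intervals) and beside it (crosses) in the NCD and HFD sections; right, the log2 ratio of HFD over NCD with its 95% counting interval, the dashed line at 2-fold. Cd36 and Mogat1 sit highest at 1.80, and Slc27a2 lies just below 0 at -0.08.

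The share of spots with a UMI depended on depth, so it was also taken at a fixed 3000 UMIs per spot, which kept 2107 NCD and 3538 HFD spots. Cd36 was found in 28.7% of NCD and 92.7% of HFD spots as measured, and in 16.8% (15.2 to 18.5) and 47.5% (45.9 to 49.2) at the fixed depth. Dgat2 was found in 53.9% of NCD and 74.5% of HFD spots at that depth, and Fabp2 in 53.4% and 70.4%. Mogat1 was found in 1.33% and 4.49%, Lpl in 2.85% and 8.20%, and Vldlr in 0.427% and 1.64%. Slc27a2 went the other way by a small step, from 93.1% (91.9 to 94.1) to 91.9% (90.9 to 92.7), intervals that overlap. Fabp1 was found in every spot of both sections at that depth.

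Adipocytes and enterocytes are known sources of Fabp4 and Fabp2, and their markers were mixed. Adipoq had 0 UMIs in NCD and 3 in HFD, Lep 0 in both, Plin1 1 and 4, and Retn 3 and 4. The 6 adipocyte markers together stood at 7.58 and 14.6 CPM, most of it from Lipe (206 and 531 UMIs) and Cfd (10 and 511 UMIs). Cfd, which encodes the secreted protease adipsin, was at 1.94, 7.30 and 13.97 CPM in the periportal, middle and pericentral parts of the HFD lobule (the zones defined below), so like Fabp4 it was higher there near the central vein; the part of adipocytes in the Fabp4 level was not tested. Of the 5 enterocyte markers, Lct, Sis and Alpi had 0 UMIs in both sections and Vil1 had 4 and 17. The remaining enterocyte marker, Apoa4, is also made by hepatocytes, and carried nearly all of that list's 373 CPM in NCD tissue and 4037 CPM in HFD tissue. Markers of cells found in liver differed between the sections. The 6 pan-macrophage markers summed to 273 CPM in NCD tissue and 582 CPM in HFD tissue, the 6 lipid-associated macrophage markers to 72.0 and 286, the 6 vascular endothelium markers to 55.1 and 92.8, and the 6 stellate cell and fibroblast markers to 234 and 513. Spp1 is in the lipid-associated macrophage list and in the bile duct list, whose 5 markers summed to 49.9 and 200 CPM. Pericentral log2 ratios of HFD over NCD were 3.10 for Spp1, 4.42 for Gpnmb, 3.70 for Mmp12 and 2.40 for Trem2. Those of Cd9 (0.84) and Atp6v0d2 (0.25, -0.28 to 0.80) were smaller. The 5 Kupffer cell markers were at 194 and 185 CPM, a sum of members that went opposite ways. In the pericentral zone the log2 ratio of HFD over NCD was -2.81 for Marco, -3.27 for Timd4 and -0.92 for Vsig4. It was 0.34 for Clec4f and 0.80 for Cd5l there. The vascular endothelium list was mixed as well, with Plvap at 1.17 and Vwf at -0.94 in that zone. The part of these cells in the ratios of the 10 genes was not tested. As a measurement, the log2 ratio of Lpl between the sections was 1.19 without the 10% of spots richest in pan-macrophage markers, and that of Fabp4 was 1.22 without the 10% richest in vascular endothelium markers.

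To place the genes along the lobule, spots were ordered by the share of pericentral UMIs (Cyp2e1, Oat, Cyp1a2, Glul, Gulo and Lect2) among these and periportal UMIs (Cyp2f2, Ass1, Hal, Sds, Hsd17b13 and Ctsc) and split within each section into 3 zones of equal numbers of spots (periportal, middle and pericentral). No spot positions were used, and the zones are ranges of a score, not cell types. Spots needed at least 20 such UMIs, which kept 2470 NCD and 3562 HFD spots; 373 and 459 of them lay within 0.02 of a boundary. The median depth of the periportal, middle and pericentral zones was 7554, 9220 and 7617 UMIs in the NCD section and 24459, 14709 and 17333 UMIs in the HFD section. Markers that took no part in the order followed it: the 4 pericentral check markers were higher in the pericentral than in the periportal zone by a log2 ratio of 3.25 in NCD and 3.47 in HFD, and the 5 periportal check markers were at -0.80 and -0.52.

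In the NCD section, 5 of the 10 genes were at least 1.5-fold higher in the pericentral than in the periportal zone (Vldlr, Pparg, Fabp4, Cd36 and Mogat1), and 0 were at least 1.5-fold lower. Of 7642 genes with at least 100 UMIs in the outer zones, 7.04% were that much higher and 2.60% that much lower; Mogat1 and Vldlr had fewer UMIs than that limit. Vldlr was at 0.339, 1.44 and 4.70 CPM in the periportal, middle and pericentral zones, from 3, 15 and 41 UMIs. Pparg was at 2.71, 5.37 and 12.7 CPM from 24, 56 and 111 UMIs (pericentral over periportal log2 ratio 2.23, 1.58 to 2.93). By zone, both genes thus had the lowest level in the periportal and the highest in the pericentral zone, with the middle zone between. Cd36 was at 41.2, 46.2 and 107 CPM (log2 ratio 1.38, 1.20 to 1.56), so its level stood apart in the pericentral zone alone. Fabp4 was at 21.2, 13.6 and 61.5 CPM, lowest in the middle, with a log2 ratio of 1.53 (1.29 to 1.78). Mogat1 was at 3.39, 3.16 and 5.50 CPM, a log2 ratio of 0.70, which was -0.02 when the check markers set the order. By that order the ratio of Pparg was 0.40, and 3 of the 10 genes were past 1.5-fold (Cd36, Fabp4 and Vldlr). Fabp1 was level along the NCD lobule, at 9602, 9695 and 9727 CPM. Fabp2 (log2 ratio 0.40), Dgat2 (0.24) and Slc27a2 (0.16) leaned to the pericentral side. Lpl was at 11.9, 10.2 and 13.6 CPM, a log2 ratio of 0.20 with an interval that spans 0 (-0.19 to 0.59).

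In the HFD section, again 5 genes were at least 1.5-fold higher pericentrally, now with Fabp2 in the place of Cd36, and 0 were at least 1.5-fold lower. The background there was 4.70% higher and 4.19% lower of 10772 genes. Vldlr was the steepest once more, at 1.13, 3.14 and 11.0 CPM from 34, 64 and 238 UMIs (log2 ratio 3.27, 2.75 to 3.84). Mogat1 was at 7.71, 15.6 and 20.9 CPM (log2 ratio 1.44, 1.21 to 1.68), rising from each zone to the next. Fabp4 was at 49.0, 62.0 and 93.4 CPM (log2 ratio 0.93), Fabp2 at 317, 442 and 535 CPM (0.76) and Pparg at 8.98, 13.8 and 14.8 CPM (0.72). Fabp1 was at 9419, 11723 and 14089 CPM (log2 ratio 0.58, 0.57 to 0.59), just short of the 1.5-fold limit. Cd36 was at 190, 233 and 255 CPM (log2 ratio 0.42, 0.37 to 0.48). Lpl alone leaned to the portal side, at 31.6, 30.9 and 22.9 CPM (log2 ratio -0.47, -0.63 to -0.31). With the check markers setting the order, 3 genes were past 1.5-fold in this section (Fabp4, Mogat1 and Vldlr).

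**Figure D2:**
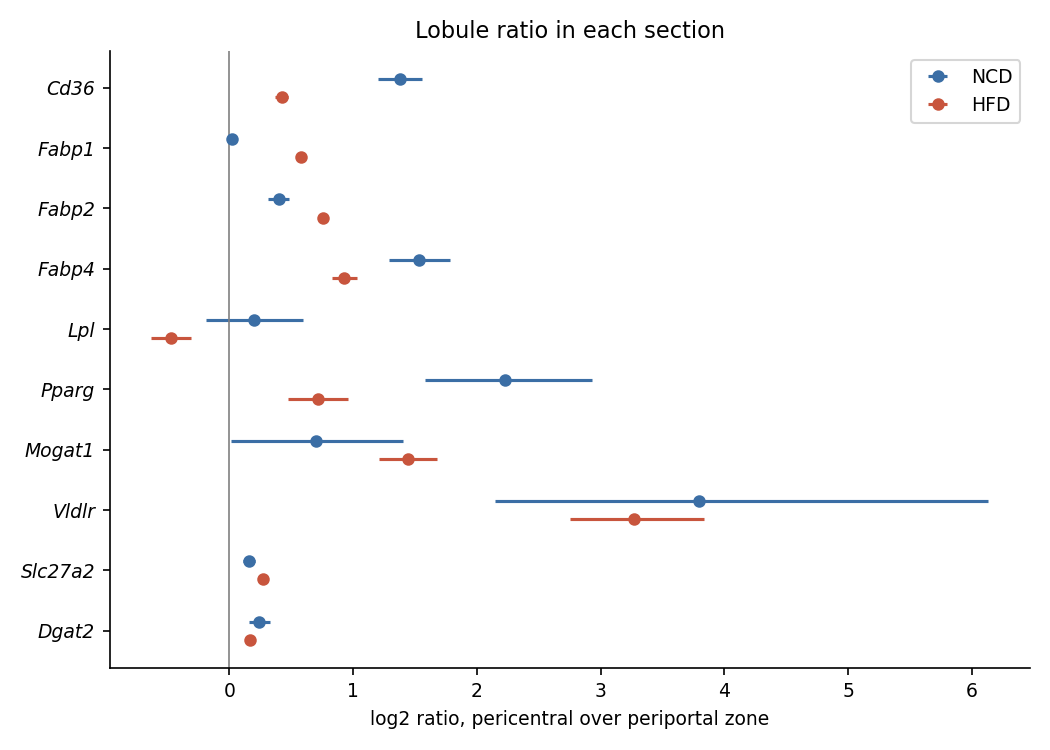
Log2 ratio of the pericentral over the periportal zone for each gene in the NCD and HFD sections, with 95% counting intervals. Vldlr has the highest ratio in both sections (3.79 in NCD, 3.27 in HFD), and Lpl in HFD is the only value clearly below 0.

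Cut more finely, into 10 bins of ordered spots, the genes took different courses. In the NCD section Cd36 was at 28.9 CPM in the most periportal bin and 146 CPM in the most pericentral one. In the HFD section its course was flat by comparison, from 171 CPM at the portal end to 262 CPM in the eighth bin, so the lowest HFD bin was above the highest NCD bin. Fabp4 in the NCD section was lowest in the fifth bin, at 11.1 CPM, and highest in the last, at 110 CPM. Its last bin in the HFD section was at 121 CPM, close to the NCD one, while the first was at 46.5 CPM against 21.9. Vldlr went from 0.636 to 19.0 CPM along the HFD order and reached 9.78 CPM in the last NCD bin, with 0 UMIs in the first. Pparg in the NCD section was lowest in bin 4, at 1.73 CPM, and highest in bin 9, at 13.7 CPM. Its last NCD bin was at 9.30 CPM from 19 UMIs, with an interval that overlaps that of bin 9. Mogat1 in the HFD section ran from 5.998 to 23.1 CPM, and in the NCD section it stayed between 1.04 and 6.68 CPM. Fabp1 in the HFD section ran from 8627 to 14826 CPM, each bin above the one before, and in the NCD section it stayed between 9304 and 10022 CPM.

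**Figure D3:**
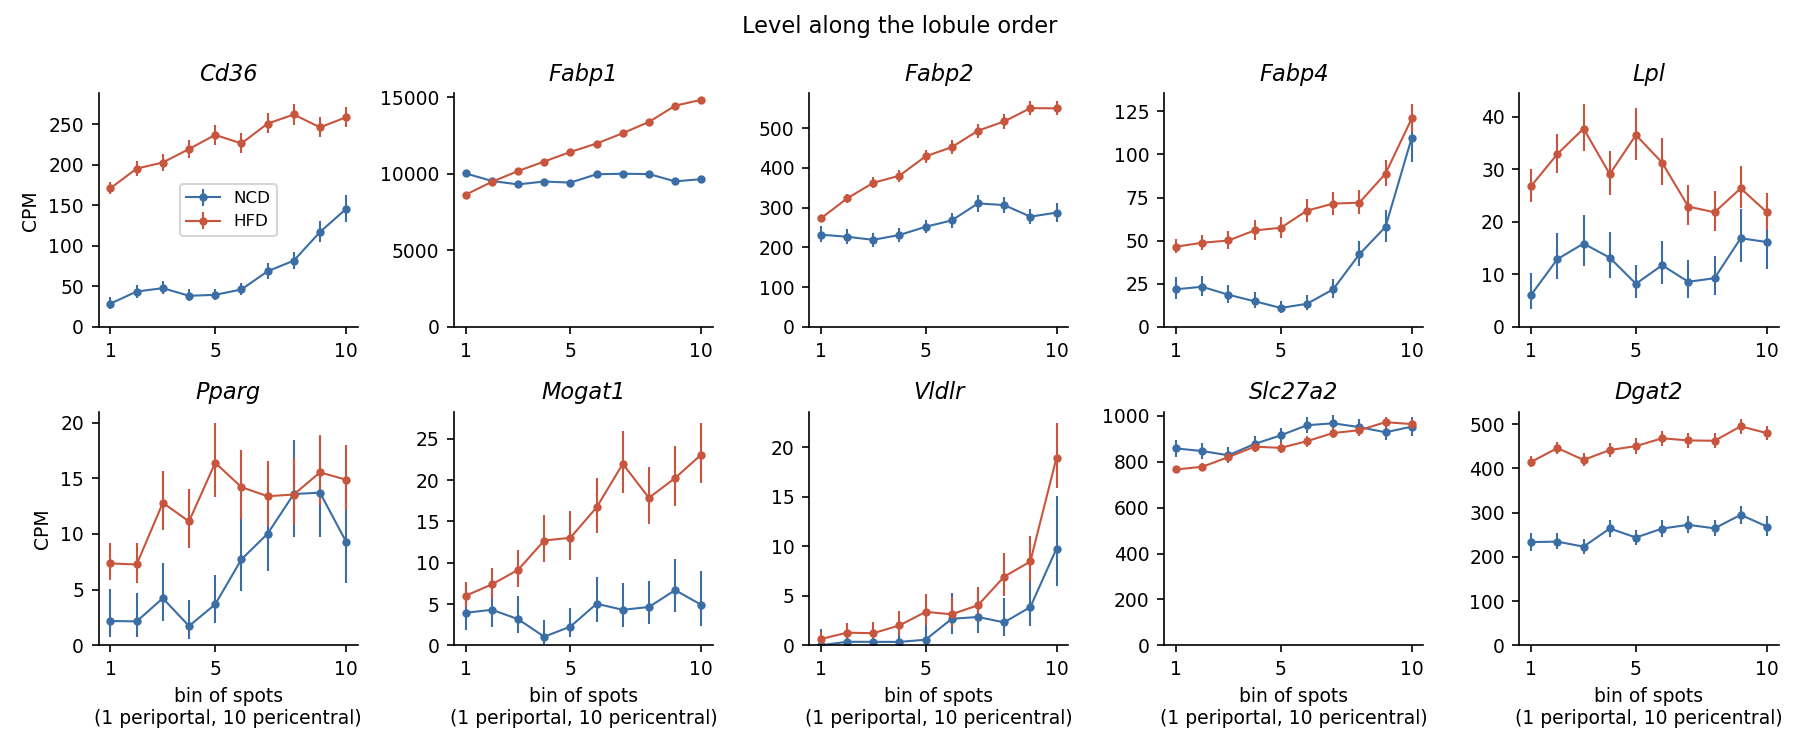
CPM of each gene in 10 equal groups of spots ordered from periportal (1) to pericentral (10), with exact Poisson 95% intervals, NCD and HFD sections; each panel has its own axis from 0. The NCD course of Cd36 climbs to 146 CPM at the central end, and the HFD course lies above it throughout.

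The lobule ratio itself was compared between the sections gene by gene, with no share over all genes set beside it. Marker lists outside the set changed too. Their log2 ratio in HFD minus that in NCD was 0.19 for the hepatocyte, 0.22 for the pericentral check and 0.28 for the periportal check markers. The log2 ratio (pericentral over periportal) was smaller in the HFD than in the NCD section for Cd36, by -0.96 (-1.14 to -0.77). It was also smaller for Pparg (-1.51, -2.19 to -0.83), Lpl (-0.67, -1.08 to -0.26) and Fabp4 (-0.60, -0.86 to -0.35). It was larger for Mogat1 (0.74, 0.05 to 1.44), Fabp1 (0.56, 0.55 to 0.58), Fabp2 (0.36, 0.26 to 0.45) and Slc27a2 (0.11, 0.06 to 0.16). For Vldlr (-0.52, -2.29 to 1.25) and Dgat2 (-0.07, -0.16 to 0.02) the interval spans 0. Across the other ways of ordering the spots, the value of Cd36 stayed between -1.33 and -0.87, whereas that of Pparg reached -0.04 with the check markers. Markers of other cell types differed along the lobule as well. The Kupffer cell markers had a pericentral over periportal log2 ratio of 0.05 in NCD and 0.71 in HFD, and the sinusoidal endothelium markers 0.09 and 0.47. The lipid-associated macrophage markers were at -1.84 and -1.43, but this list holds Spp1 (-3.55 and -2.14), also a bile duct marker. Its other members were not as steep: Trem2 (0.34 and -0.39), Gpnmb (0.02 and -0.33), Mmp12 (-0.33 and -0.52), Cd9 (-0.44 and -0.29) and Atp6v0d2 (1.25 and 0.39). The part of these cells in the differences was not tested.

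The sections were also compared zone by zone. The zones were cut within each section, at pericentral shares of 0.630 and 0.847 in NCD and of 0.550 and 0.771 in HFD, so a zone is a rank along the order and not the same score in both, and 1222 NCD but 32 HFD spots were left out. In the periportal zone 6 of the 10 genes were at least 2-fold higher in the HFD section (9.69% of all genes tested there), in the middle zone 6 (10.4%) and in the pericentral zone 3 (8.99%), namely Cd36, Mogat1 and Vldlr. These shares are of genes with at least 100 UMIs in the zone; Vldlr, among the 6 in the periportal and in the middle zone, was under that limit there, and 9 members reached it. The log2 ratio of HFD over NCD for Cd36 was 2.21 (2.05 to 2.36) in the periportal, 2.33 (2.20 to 2.47) in the middle and 1.25 (1.15 to 1.35) in the pericentral zone. Pparg went from 1.73 (1.12 to 2.39) through 1.36 to 0.21 (-0.10 to 0.54), so no difference was detectable at this depth near the central vein. Fabp4 was at 1.21, 2.19 and 0.60 and Lpl at 1.42, 1.60 and 0.75. Mogat1 was at 1.19 (0.63 to 1.79), 2.30 and 1.93. Dgat2 had nearly the same ratio in each zone, at 0.87, 0.81 and 0.80. Fabp1 went the other way, from -0.03 (-0.04 to -0.02) through 0.27 to 0.53 (0.52 to 0.55), and Fabp2 from 0.51 through 0.73 to 0.86. The periportal value of Vldlr, 1.74 (0.07 to 4.09), rests on 3 UMIs in the NCD section.

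**Figure D4:**
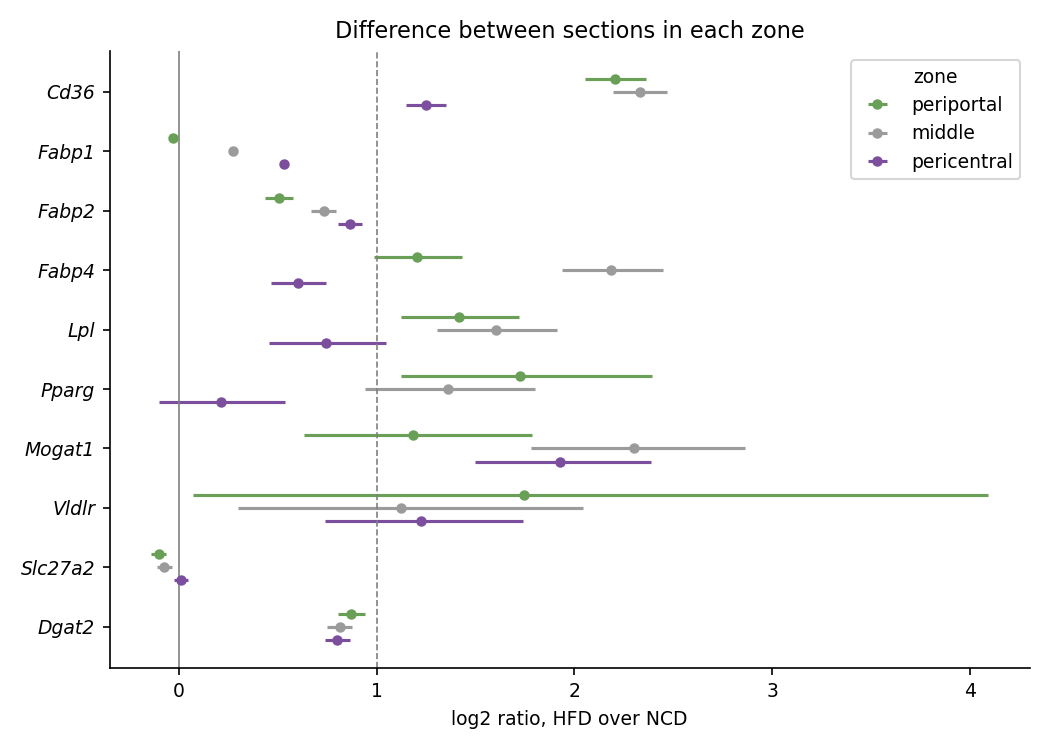
Log2 ratio of HFD over NCD within the periportal, middle and pericentral zones for each gene, with 95% counting intervals; the dashed line marks 2-fold. For Cd36, Pparg, Fabp4 and Lpl the pericentral value is the lowest of the 3, for Fabp1 and Fabp2 the highest.

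Spots rich in markers of other cells were used to describe which markers the transcripts lay beside. In each section, spots with at least 3000 UMIs were ranked by the summed CPM of a marker list that holds none of the 10 genes, and the top 10% (211 NCD and 354 HFD spots) were set against the rest. Fabp4 in the NCD section was at 88.2 CPM in vascular endothelium-rich spots and 26.4 CPM elsewhere (log2 ratio 1.74, 1.47 to 1.998). In the HFD section the same contrast was 92.6 against 63.7 CPM (0.54, 0.41 to 0.67). The rich spots of the sections are not alike: the marker list itself was above the other spots by a log2 ratio of 3.21 in NCD and 1.89 in HFD, and 47.9% and 29.9% of them were periportal. In stellate cell and fibroblast-rich spots its log2 ratio was 1.12 in NCD and 0.74 in HFD.

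Lpl was higher in spots rich in macrophage markers in both sections, and in spots rich in other non-hepatocyte markers too. In pan-macrophage-rich spots it was at 28.6 CPM against 10.4 CPM elsewhere in the NCD section (log2 ratio 1.46, 0.99 to 1.89) and at 65.9 against 24.7 CPM in the HFD section (1.41, 1.26 to 1.56). Lpl in the NCD section was about as high in smooth muscle-rich spots, at 24.9 against 10.2 CPM (1.29, 0.87 to 1.69), and it was high in stellate cell and fibroblast-rich (1.08) and vascular endothelium-rich spots (1.06). Its NCD log2 ratio in lipid-associated macrophage-rich spots was 0.54, with an interval that spans 0 (-0.03 to 1.06). In the HFD section it was high in lipid-associated macrophage-rich spots, at 60.6 against 24.3 CPM (1.32, 1.18 to 1.46). Of these spots 69.2% lay in the periportal zone and 6.50% in the pericentral zone. The list that ranked them holds Spp1, also a bile duct marker, whose own pericentral over periportal log2 ratio was -2.14. Kupffer cell-rich HFD spots had 44.8 CPM of Lpl against 27.1 CPM (0.73), stellate cell and fibroblast-rich spots 53.4 against 26.1 CPM (1.03), and smooth muscle-rich spots 47.8 against 26.9 CPM (0.83). Without the pan-macrophage-rich spots, its pericentral over periportal log2 ratio was 0.50 in NCD and -0.45 in HFD. Lpl had like levels in and outside lipid droplet-rich HFD spots, at 29.3 against 28.7 CPM.

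Of the lipid droplet-rich spots of the HFD section, 71.8% were in the pericentral zone. All of the 10 genes but Lpl were higher in these spots, Vldlr, Mogat1 and Pparg by the most. The log2 ratio was 0.47 for Fabp4, 0.39 for Fabp2, 0.31 for Fabp1 and for Cd36, 0.18 for Slc27a2 and 0.12 for Dgat2. Vldlr was at 8.65 CPM there against 4.29 CPM elsewhere (log2 ratio 1.01, 0.56 to 1.44), Mogat1 at 21.1 against 13.2 CPM (0.68, 0.40 to 0.94) and Pparg at 17.3 against 11.6 CPM (0.58, 0.27 to 0.87). Vldlr was also higher in vascular endothelium-rich (0.86) and sinusoidal endothelium-rich HFD spots (0.78), and Mogat1 in sinusoidal endothelium-rich (0.57) and Kupffer cell-rich ones (0.58). In lipid droplet-rich spots of the NCD section Pparg was at 14.2 against 6.27 CPM (1.18, 0.51 to 1.79), from 25 UMIs. There Vldlr (0.10, -1.82 to 1.54) and Mogat1 (0.07, -1.29 to 1.16) had too few UMIs to place. Vldlr was low in lipid-associated macrophage-rich HFD spots, at 1.22 CPM from 11 UMIs against 5.16 CPM (-2.07, -3.09 to -1.22), and in bile duct-rich spots, at 1.11 against 5.18 CPM (-2.23); these 2 lists share Spp1, and 74.6% of the bile duct-rich spots were periportal. Cd36 differed little between marker-rich and other HFD spots: over the 10 lists its log2 ratio ran from -0.35 (-0.44 to -0.26) in smooth muscle-rich to 0.31 (0.23 to 0.38) in lipid droplet-rich spots. In the NCD section Cd36 was somewhat higher in vascular endothelium-rich spots, at 85.2 against 61.6 CPM (0.47, 0.21 to 0.72). The marker-rich NCD spots were shallower than the rest, with medians of 5926 to 8630 against 10057 to 10507 UMIs, except for the smooth muscle and blood lists, whose rich spots were deeper (11419 and 10861 UMIs). Depth was unequal in the HFD section too. Lipid-associated macrophage-rich (24165 against 18286 UMIs) and bile duct-rich spots (24572 against 18305) were deeper than the rest. Lipid droplet-rich (16204 against 19179) and vascular endothelium-rich spots (14762 against 19284) were shallower.

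**Figure D5:**
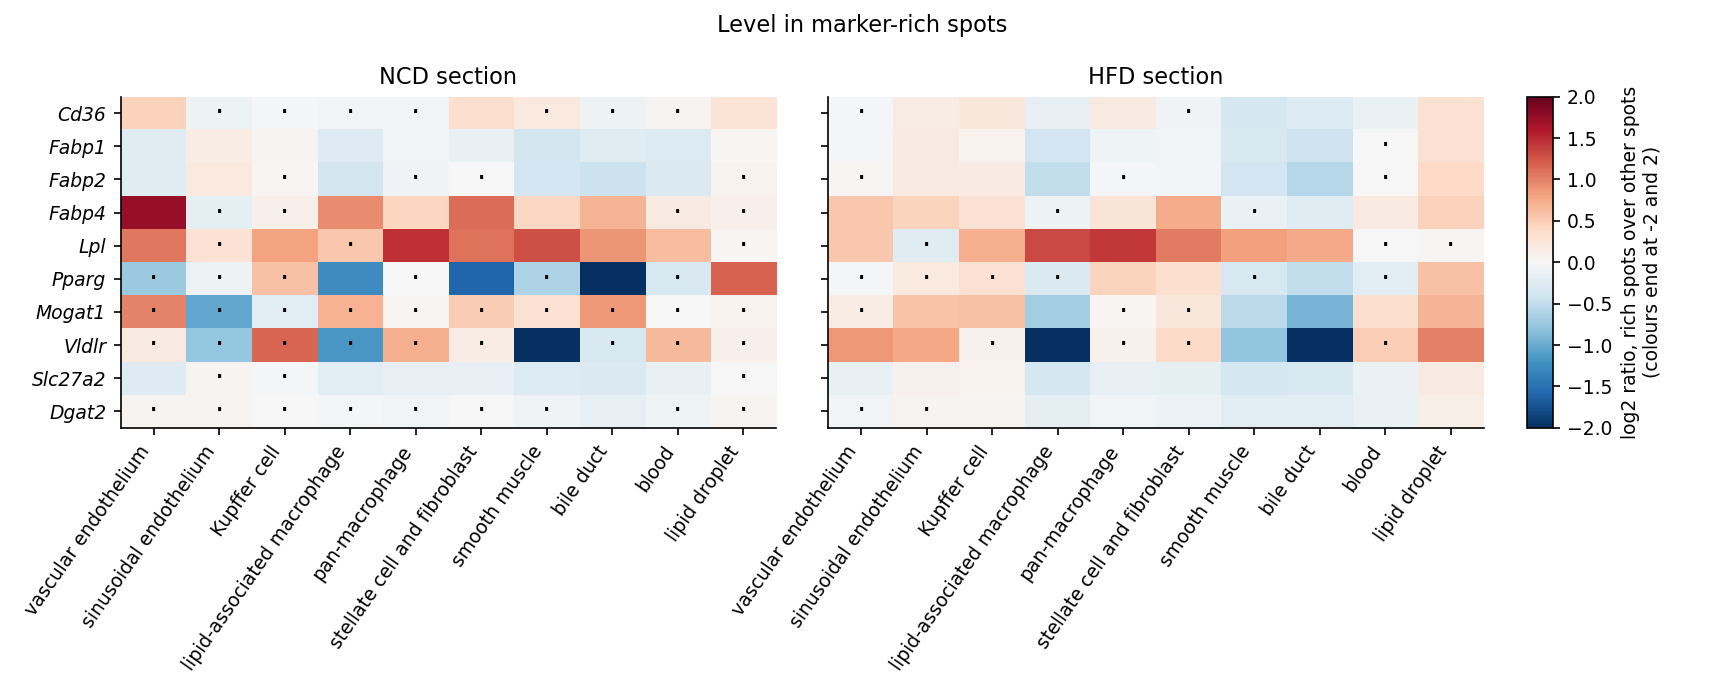
Log2 ratio of each gene's CPM in the 10% of spots richest in each marker list over the other spots, NCD left and HFD right; colours end at -2 and 2, and a dot marks a 95% counting interval that spans 0. Lpl is highest with pan-macrophage markers in both sections (1.46 in NCD, 1.41 in HFD), Fabp4 with vascular endothelium in NCD, and Vldlr is high with lipid droplet markers in HFD.

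Across the 3538 HFD spots with at least 3000 UMIs, the genes most like a member were named where Pearson's r of log2(1 + UMIs per 10000) reached 0.3. Fabp1 was most like Cyp2e1 (r = 0.71), Mgst1 (0.70) and Apoa2 (0.70), Fabp2 was most like Fabp1 (0.45), Mgst1 (0.40) and Cyp2e1 (0.40), and Slc27a2 was most like Mgst1 (0.33). No gene of the 5433 compared reached 0.3 for the other 7. Of these, Lpl, Pparg, Mogat1 and Vldlr had few UMIs per spot, so the limit says little about their likeness. The 99th percentile of r over the compared genes was 0.060 for Pparg and 0.095 for the more abundant Dgat2, against 0.363 for Fabp1. Cyp2e1 is one of the genes that set the lobule order, and these spots share 1 library, so the values describe that section and carry no p. Between Fabp1 and Fabp2 r was 0.14 over the 2107 NCD spots with at least 3000 UMIs. These were shallower than the HFD spots and held less Fabp2, so the 2 values of r were not taken at like depth.

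Of 48 further genes of the pathway, chosen by role, 41 had at least 100 UMIs over both sections, and 3 of these were at least 2-fold higher in the HFD section and 0 at least 2-fold lower, beside the 10.8% and 2.06% of all genes. Their median log2 ratio was 0.37. The 3 past 2-fold were Lpin1, Agpat4 and Gpat3. Lpin1, a phosphatidic acid phosphatase, was at 12.1 CPM in NCD tissue and 166 CPM in HFD tissue (log2 ratio 3.79, 3.63 to 3.94). Agpat4 was at 0.723 and 2.73 CPM (1.92, 1.27 to 2.64). Gpat3, which catalyses the first acylation of glycerol phosphate, was at 4.37 and 11.6 CPM (1.41, 1.14 to 1.69). Among the most abundant genes by role, Lpin2 (log2 ratio 0.85), Fabp5 (0.82), Soat2 (0.56) and the PPAR partner gene Rxra (0.24) had ratios above 0. Those of Agpat2 (-0.32), the acyl-CoA synthetase gene Acsl1 (-0.34) and the transporter gene Slc27a5 (-0.65) were below 0. Along the lobule, 2 of 32 such genes with enough UMIs were at least 1.5-fold higher pericentrally in the NCD section and 0 lower, near the 7.04% and 2.60% of all genes there. In the HFD section 4 of 40 were higher and 1 lower, beside 4.70% and 4.19%.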

How the data were processed

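Visium spatial transcriptomics had been run on 1 liver section per diet. The authors used Space Ranger 1.3.1 against mm10 to make the deposited tables, which hold raw UMI counts per gene and spot, for spots over tissue and for all spots; replicates were not pooled. Per the file headers the tables are not normalized. From them, UMIs were summed over spots and divided by the summed total (CPM), with exact Poisson intervals; ratios carry exact conditional binomial intervals, shares Clopper-Pearson intervals, and differences of 2 log2 ratios an interval from 4 Poisson sums. Intervals and floors cover counting error only. No test was run between sections, because each diet had 1. Members were the rows with the listed symbols, all of which were named; of the further pathway genes, those at least 2-fold apart and the most abundant of each role were named, except 1 that is not reported here. Members, marker lists and pathway lists were chosen with earlier results of these data known. Doublets do not apply to spots. Alternatives were other pooling, depth, scaling, background, lobule orders and shares of rich spots. The intervals and the lobule order were tested on simulated data. Python 3.11.15, numpy 2.4.6, scipy 1.17.1 and pandas 2.3.3 were used. Gene identifiers are those of the deposited feature lists; promoters come from RefSeq.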

Additional observations from a re-analysis of the deposited data

Results flagged for a closer look

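For 3 of the 10 genes the ratios compared had opposite signs, and no share over all genes is set beside this count. None of these differences was tested, since each diet had 1 section. Fabp1 was slightly lower in the HFD than in the NCD section in the periportal zone and higher in the pericentral zone, and the pericentral log2 ratio of HFD over NCD was above the periportal one by 0.56. Lpl leaned to the pericentral zone in the NCD section, with an interval that spans 0, and to the periportal zone in the HFD section, a difference of -0.67 in the log2 lobule ratio. Slc27a2 had a log2 ratio of HFD over NCD of -0.10 in the periportal zone and 0.01 in the pericentral zone, the latter with an interval that spans 0, and the difference was 0.11. The signs for Fabp1 and Slc27a2 hold for scaling by total UMIs. By that scaling the median gene with at least 100 UMIs in the zone was at 0.26 in the periportal and 0.20 in the pericentral zone. Slc27a2 was thus below the median gene in both zones, and Fabp1 in the periportal zone only.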

How the results depend on the processing

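No paired analysis was possible because each diet had 1 section. Against 5 members at least 2-fold higher in the HFD section, 2 were when every spot was thinned to 300 UMIs, and 3 were with median-of-ratios scaling or with the off-tissue UMIs subtracted. The shares over all genes given above belong to the main settings, so no like share stands beside the counts of these alternatives. The median log2 ratio of the members, 0.98, was 0.63 at 300 UMIs, 0.61 with the off-tissue UMIs subtracted and 1.25 without the 1% of spots with the most UMIs of each gene. With the check markers setting the lobule order, 3 members instead of 5 were at least 1.5-fold higher pericentrally in each section, and the NCD ratio of Mogat1 changed sign, from 0.70 to -0.022. The log2 ratio of HFD over NCD ranged from 1.43 to 1.91 for Cd36 over all alternatives, from 0.92 to 2.40 for Mogat1, from 0.07 to 1.31 for Fabp4, from 0.42 to 2.38 for Vldlr and from 0.66 to 1.64 for Lpl. Among genes with at least 1000 UMIs, 6.79% were at least 2-fold higher in the HFD section and 1.67% lower, instead of 10.8% and 2.06% of those with at least 100. Leaving out the pan-macrophage-rich or the vascular endothelium-rich spots, alternatives chosen after seeing the data, left 5 members past 2-fold. The causes of these shifts were not tested. Depth limits Vldlr, Mogat1 and Pparg most, with 61, 116 and 194 UMIs in the NCD section. No replicate could be left out.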
